A study of Homo sapiens with 9 samples.

Results

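The 9 genes described here make, package, recapture or break down catecholamines, or encode the granins of the granules that store them, in SH-SY5Y cells. This human line comes from a neuroblastoma, a tumour of the sympathetic lineage, and keeps traits of young sympathetic neurons. They were found by symbol among 61487 counted gene identifiers: DBH, DDC, GCH1, MAOA, SLC18A1, SLC18A2, SLC6A2, CHGA and CHGB. All 9 were matched, and all 9 passed the filter on low counts that left 17806 genes for testing. The cells were kept 72 h in medium with 15% fetal bovine serum and vehicle, 10 µM or 20 µM citrinin, a mycotoxin of Penicillium, Aspergillus and Monascus moulds. Each dose had 3 RNA-seq libraries, numbered 1 to 3 in the titles, 9 in all. The labels name 1 cell line and no genetic change, and do not say whether the libraries of a dose came from separate cultures. P-values thus measure the spread between these libraries, which may be technical. In fits that compare same-numbered libraries, they measure only the spread left after differences between the numbers are removed.

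Catecholamines are built from tyrosine. Tyrosine hydroxylase, which needs the cofactor tetrahydrobiopterin, makes L-DOPA, and aromatic amino acid decarboxylase turns it into dopamine. A vesicular monoamine transporter loads dopamine into granules, where dopamine beta-hydroxylase converts it to noradrenaline beside the acidic granin proteins. After release, the noradrenaline transporter takes the amine back into the cell, where monoamine oxidase begins its breakdown. Sympathetic neurons, adrenal chromaffin cells and the neuroblastomas that come from the same lineage are known for this pathway.

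The granins CHGA and CHGB and the enzymes DBH and DDC fell after 20 µM citrinin, by 13.9% to 24.2%, when same-numbered libraries were compared with each other. SLC6A2, MAOA, GCH1, SLC18A1 and SLC18A2 did not pass the test. With DESeq2 and the same block CHGA and CHGB passed, and DBH and DDC did not. None of the 9 genes passed at 10 µM. Differences between the replicate numbers were larger than those between doses for 7 of the 9 genes. This was common in the series: over all tested genes the median share of variance was 55.1% by number and 11.4% by dose. "Rose" and "fell" are used below of genes with a Benjamini-Hochberg adjusted p below 0.05 over all 17806 genes in edgeR's quasi-likelihood test with the replicate number as a block. In the planned edgeR fit without that block 0 of the 9 genes passed in any dose comparison.

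Libraries held 15678443 to 19604367 reads assigned to genes, and 3 reads in a library equalled 0.153 to 0.194 CPM (read counts scaled to library depth with TMM factors). The sympathetic neuroblast markers were present: all 10 genes of that list, among them PHOX2A and HAND2, averaged over 1 CPM, and their summed level was 2981 to 3824 CPM in vehicle libraries, 2905 to 3709 CPM at 10 µM and 2534 to 3548 CPM at 20 µM. TH, which encodes tyrosine hydroxylase and defines the catecholamine lineage, had 3 reads in all 9 libraries and was at 0 in 7 of them, so it was not tested. PNMT, which makes adrenaline from noradrenaline, had 4 to 26 reads per library, and the chromaffin peptide genes PENK and CARTPT were at 0. The Schwann cell genes SOX10, FOXD3, GFAP and CDH19 averaged under 1 CPM.

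Promoter sequences are shown for the members that fell and were in the RefSeq promoter table (GRCh38.p14, 250 bases before to 50 bases after the annotated start), and for SLC18A2, which shares a motif with CHGA. The table held 5 of the 9 members, DBH, DDC, MAOA, SLC18A2 and CHGA. Each is written on the strand of its gene, and capitals mark every motif found among those searched on both strands: TGACGTCA (the full cAMP response element), TGACG (its core, which lies inside the full element on both strands), TGACNNNGC (the core of the antioxidant response element, which can overlap TGACG), a paired homeodomain site and TATAAA (the TATA box). The windows are chr14:92922900-92923199 on the plus strand for CHGA, chr10:117240864-117241163 on the plus strand for SLC18A2, chr9:133636113-133636412 on the plus strand for DBH and chr7:50565356-50565655 on the minus strand for DDC.
CHGA: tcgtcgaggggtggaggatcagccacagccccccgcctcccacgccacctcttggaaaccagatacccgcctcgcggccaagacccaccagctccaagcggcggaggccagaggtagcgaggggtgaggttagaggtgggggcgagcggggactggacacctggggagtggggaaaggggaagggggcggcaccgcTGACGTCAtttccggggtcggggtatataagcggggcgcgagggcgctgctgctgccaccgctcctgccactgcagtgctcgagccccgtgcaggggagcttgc
SLC18A2: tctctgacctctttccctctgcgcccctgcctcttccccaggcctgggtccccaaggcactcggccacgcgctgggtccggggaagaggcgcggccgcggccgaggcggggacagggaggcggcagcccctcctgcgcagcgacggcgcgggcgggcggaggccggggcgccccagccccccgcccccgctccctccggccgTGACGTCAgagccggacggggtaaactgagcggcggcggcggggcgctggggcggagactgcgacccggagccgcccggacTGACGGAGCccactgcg
DBH: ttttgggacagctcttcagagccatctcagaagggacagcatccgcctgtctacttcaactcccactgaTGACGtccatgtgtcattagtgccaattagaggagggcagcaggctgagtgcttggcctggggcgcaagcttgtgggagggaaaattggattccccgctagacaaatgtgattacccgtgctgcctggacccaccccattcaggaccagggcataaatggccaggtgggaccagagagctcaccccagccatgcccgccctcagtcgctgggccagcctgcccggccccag
DDC: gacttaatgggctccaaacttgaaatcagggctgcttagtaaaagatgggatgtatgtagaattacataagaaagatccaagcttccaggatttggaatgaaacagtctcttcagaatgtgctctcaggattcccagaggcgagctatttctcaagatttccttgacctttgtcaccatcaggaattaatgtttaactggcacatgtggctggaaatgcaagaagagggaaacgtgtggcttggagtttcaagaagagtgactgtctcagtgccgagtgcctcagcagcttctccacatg

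The full TGACGTCA element began 54 bases before the start of CHGA and 48 bases before the start of SLC18A2, and 1.85% of the 35116 promoters in the table held it. DBH had the core TGACG beginning 181 bases before its start, a motif found in 24.55% of all promoters. SLC18A2 also had a TGACNNNGC match in the first 50 bases of the transcript, as did 13.35% of all promoters somewhere in the window. None of the 5 motifs was found in the windows of DDC and MAOA. Neither the paired homeodomain site (0.36% of all promoters) nor the exact string TATAAA (11.53%) was found in any of the 5 windows. Other forms of a TATA box were not searched, such as the TATATAAG in the CHGA window, so their absence is not shown.

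In vehicle libraries DBH, both granins, DDC and GCH1 had the highest levels per length. DBH stood first at 28.5 ± 8.51 RPKM (CPM per kilobase of annotated exon; SD, n = 3), followed by CHGA at 24.2 ± 3.82, CHGB at 22.4 ± 7.12, DDC at 19.7 ± 5.26 and GCH1 at 17.6 ± 3.61 RPKM. SLC6A2 had 12.1 ± 6.06 RPKM, MAOA 6.86 ± 0.57, SLC18A1 4.91 ± 1.40 and SLC18A2 0.116 ± 0.065 RPKM. Each of these genes overlapped its neighbour in that order over the 3 vehicle libraries, except that every SLC18A1 value lay above every SLC18A2 value. Of the pair of vesicular monoamine transporters, SLC18A1 is a form known from chromaffin cells and SLC18A2 one known from neurons. Their ratio is not used here to name a cell type. By joint counts per length SLC18A1 was 29.2, 39.7 and 96.1 times SLC18A2 in vehicle replicates 1, 2 and 3. The length of SLC18A2 includes 2157 exon bases (52.0%) shared with PDZD8 on the opposite strand, where joint counts leave reads out. Its level may thus be understated and these ratios overstated. Reads over SLC18A2 shared with a gene on the other strand averaged 14.5 CPM in vehicle, against 0.481 CPM in its joint count.

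GCH1 encodes GTP cyclohydrolase, the first enzyme of tetrahydrobiopterin synthesis (ENSG00000131979, GRCh38 with GENCODE 29, chromosome 14, 54842008 to 54902852, minus strand). It had 40.5, 61.4 and 54.3 CPM in vehicle replicates 1, 2 and 3, then 37.6, 63.1 and 53.6 CPM at 10 µM and 40.4, 58.7 and 46.7 CPM at 20 µM. Replicate 2 was the highest and replicate 1 the lowest at every dose, and the dose groups overlapped. At 20 µM against vehicle the log2 fold change was -0.10 ± 0.07 (SE, replicate block), with a 95% interval of -0.23 to 0.04 and an edgeR adjusted p of 0.579.

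DDC encodes aromatic amino acid decarboxylase, which makes dopamine from L-DOPA (ENSG00000132437, chromosome 7, 50458436 to 50565457, minus strand). Its level was 47.8, 80.0 and 57.6 CPM in vehicle replicates 1, 2 and 3, 47.0, 84.1 and 54.9 CPM at 10 µM, and 45.6, 62.1 and 46.0 CPM at 20 µM. Replicate 2 of 20 µM was above vehicle replicates 1 and 3, so the groups overlapped, but each 20 µM library was below the vehicle library of its number. DDC fell by 0.26 ± 0.07 on the log2 scale at 20 µM (SE, replicate block; 95% interval -0.40 to -0.12), a change of -16.3%, with an edgeR adjusted p of 0.0419. With DESeq2 and the block it was not called (adjusted p 0.114). Without the block the log2 fold change was -0.27 ± 0.26. The difference within numbers was -0.07 for replicate 1, -0.37 for replicate 2 and -0.32 for replicate 3 on the log2 scale. The call was lost without any 1 of the 3 vehicle libraries (adjusted p 0.0934, 0.321 and 0.306 without replicates 1, 2 and 3), and without 10 µM replicate 3 (0.0928), 20 µM replicate 2 (0.293) or 20 µM replicate 3 (0.276).

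DBH encodes dopamine beta-hydroxylase, the granule enzyme that makes noradrenaline (ENSG00000123454, chromosome 9, 133635348 to 133659344, plus strand). It had 145, 90.5 and 87.7 CPM in vehicle replicates 1, 2 and 3, 138, 86.8 and 92.5 CPM at 10 µM, and 128, 78.4 and 72.7 CPM at 20 µM. Replicate 1 was the highest library at each dose, whereas it was the lowest at each dose for GCH1 and DDC, and the groups overlapped. DBH fell by 0.22 ± 0.05 on the log2 scale at 20 µM (SE, replicate block; 95% interval -0.33 to -0.10), a change of -13.9%, with an edgeR adjusted p of 0.0295. DESeq2 with the block did not call it (adjusted p 0.0668). It was lower in 3 of 3 same-numbered pairs, by -0.18, -0.21 and -0.27 on the log2 scale in pairs 1, 2 and 3, and without the block its log2 fold change was -0.21 ± 0.29. The call was lost without vehicle replicate 1, 2 or 3 (adjusted p 0.182, 0.254 and 0.135), and without 10 µM replicate 3 (0.053), 20 µM replicate 2 (0.0591) or 20 µM replicate 3 (0.332).

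Of the 4 genes that fell, both granins had the largest fitted changes, but differences between genes were not tested. Without 20 µM replicate 1 the log2 fold change with the block was -0.35 for DDC and -0.32 for CHGB. CHGA encodes chromogranin A, an acidic protein of the granule core and the precursor of several peptides (ENSG00000100604, chromosome 14, 92923080 to 92935293, plus strand). CHGA had 63.9, 87.5 and 73.5 CPM in vehicle replicates 1, 2 and 3, 58.1, 89.4 and 67.9 CPM at 10 µM, and 50.6, 66.7 and 53.2 CPM at 20 µM. The 20 µM libraries of replicates 1 and 3 lay below every vehicle and 10 µM library, and that of replicate 2 lay above the vehicle library of replicate 1, so the groups overlapped. CHGA averaged 56.8 ± 8.68 CPM at 20 µM and 75.0 ± 11.8 CPM in vehicle (SD, n = 3 each). It fell by 0.40 ± 0.06 on the log2 scale (SE, replicate block; 95% interval -0.52 to -0.28), a change of -24.2%, with an edgeR adjusted p of 0.000151. The 3 within-number differences were -0.34, -0.39 and -0.47. Without the block the log2 fold change was -0.40 ± 0.18, with an unadjusted p of 0.0495 and an adjusted p of 1 in edgeR. CHGA passed at 20 µM with the block whichever 1 of the 9 libraries was left out (log2 fold change -0.45 to -0.37), but not without all 3 libraries of replicate 3 (-0.36, adjusted p 0.12).

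CHGB encodes chromogranin B, also called secretogranin I, the second acidic protein of the granule matrix (ENSG00000089199, chromosome 20, 5911430 to 5925361, plus strand). CHGB had 64.4, 124 and 116 CPM in vehicle replicates 1, 2 and 3, 52.0, 124 and 103 CPM at 10 µM, and 50.5, 113 and 85.2 CPM at 20 µM. Replicate 1 was far below the others at every dose, and the groups overlapped. CHGB fell by 0.31 ± 0.06 on the log2 scale at 20 µM (SE, replicate block; 95% interval -0.43 to -0.18), a change of -19.2%, with an edgeR adjusted p of 0.00443. The within-number differences were -0.35, -0.13 and -0.45, and the value without the block was -0.29 ± 0.41. The call was lost without vehicle replicate 1 (adjusted p 0.0885), vehicle replicate 3 (0.116) or 20 µM replicate 3 (0.16). Per length, CHGB was 0.683, 1.16 and 1.10 times CHGA in 20 µM replicates 1, 2 and 3, against 0.689, 0.967 and 1.08 times in vehicle replicates.

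SLC6A2 encodes the noradrenaline transporter of the cell surface (ENSG00000103546, chromosome 16, 55655604 to 55706192, plus strand). It had 30.4, 95.7 and 72.7 CPM in vehicle replicates 1, 2 and 3, 29.7, 89.0 and 75.0 CPM at 10 µM, and 28.9, 78.0 and 60.6 CPM at 20 µM. The replicate numbers were fully separated for this gene, and the doses overlapped. At 20 µM the log2 fold change was -0.23 ± 0.06 (SE, replicate block; 95% interval -0.36 to -0.10), close to that of DBH, and its edgeR adjusted p of 0.0579 did not pass. Without the block it was -0.25 ± 0.56. SLC6A2 passed with the block when 10 µM replicate 1, 10 µM replicate 2 or 20 µM replicate 1 was left out.

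MAOA encodes monoamine oxidase A of the outer mitochondrial membrane (ENSG00000189221, chromosome X, 43654907 to 43746824, plus strand). It had 34.6, 40.9 and 38.3 CPM in vehicle replicates 1, 2 and 3, 41.6, 42.4 and 38.6 CPM at 10 µM, and 35.9, 35.0 and 31.8 CPM at 20 µM. Its libraries differed least by replicate number of the 8 genes above 1 CPM. Every 20 µM library was below every 10 µM library, and the 20 µM and vehicle libraries overlapped. At 20 µM against vehicle the log2 fold change was -0.15 ± 0.07 (SE, replicate block), with an interval of -0.30 to 0.00 and an edgeR adjusted p of 0.391. At 10 µM against vehicle it was 0.11 ± 0.07.

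SLC18A1, a vesicular transporter known from chromaffin cells (ENSG00000036565, chromosome 8, 20144855 to 20183206, minus strand), had 16.1, 25.5 and 16.0 CPM in vehicle replicates 1, 2 and 3. It had 16.7, 26.9 and 16.8 CPM at 10 µM, and 20.5, 27.8 and 14.7 CPM at 20 µM. Replicate 2 was the highest at each dose, and the 20 µM libraries were higher than their vehicle partners in replicates 1 and 2 and lower in replicate 3. The log2 fold change at 20 µM was 0.13 ± 0.10 (SE, replicate block; 95% interval -0.07 to 0.33), with an edgeR adjusted p of 0.633.

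SLC18A2, a vesicular transporter known from monoamine neurons (ENSG00000165646, chromosome 10, 117241073 to 117279430, plus strand), was near the floor of the joint counts. It had 10, 12 and 3 reads in vehicle replicates 1, 2 and 3, 7, 11 and 10 reads at 10 µM, and 8, 4 and 14 reads at 20 µM. The log2 fold change at 20 µM was 0.07 ± 0.58 (SE, replicate block), so a change of either sign was not detectable at this depth. Of its 4145 exon bases 2157 (52.0%) overlap exons of PDZD8, a lipid-transfer protein gene on the opposite strand, and the joint count leaves out reads that lie over both genes. Adding the counts made for each strand gave 204 to 337 reads per library, of which 94.5% to 98.9% also lay over a gene on the other strand. These shared reads had 13.6 ± 0.62 CPM at 20 µM and 14.5 ± 1.18 CPM in vehicle (SD, n = 3 each), and because the library kit does not mark strand, they cannot be assigned to SLC18A2 or to PDZD8.

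**Figure D1:**
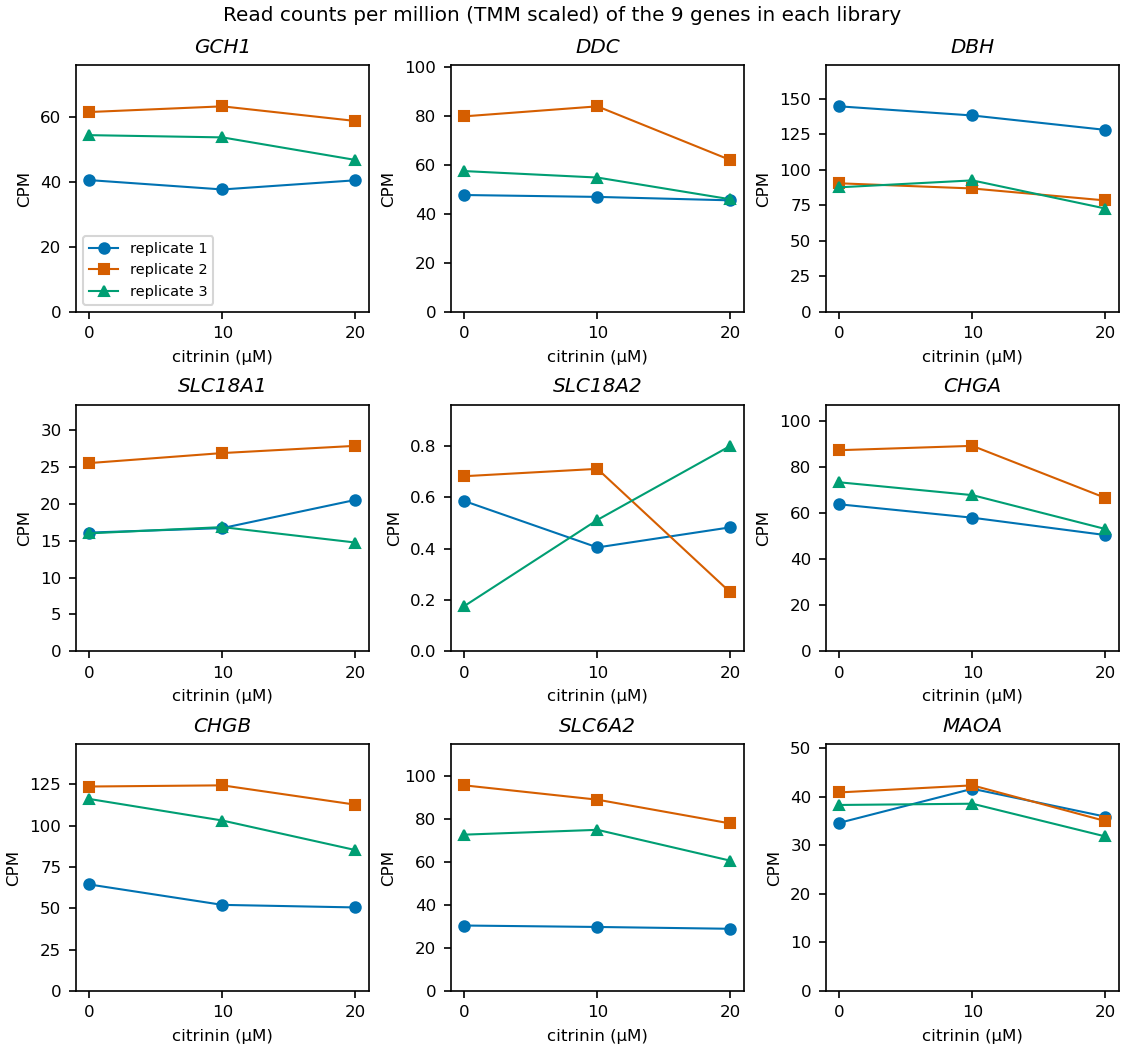
Read counts as CPM (TMM scaled, vertical axis from 0) of the 9 genes against citrinin dose in µM (horizontal axis); each point is 1 library and lines join libraries with the same replicate number. CHGA was lower at 20 µM than in vehicle in all 3 numbers (50.6, 66.7 and 53.2 against 63.9, 87.5 and 73.5 CPM), while replicate 1 of SLC6A2 stayed between 28.9 and 30.4 CPM, below every library of the other numbers.

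Overlap with antisense genes touched other members too. DBH shares 118 exon bases with DBH-AS1, an antisense transcript, and 22.7% to 27.3% of the reads over DBH exons in a library lay over both genes and were left out of its joint count. For DDC, which shares 114 exon bases with DDC-AS1, the share was 12.0% to 18.9%. GCH1, MAOA, SLC6A2 and CHGA shared no read with a gene on the other strand, SLC18A1 at most 0.816% and CHGB at most 0.0506%. SLC6A2 shares 977 exon bases with AC136621.1, a locus of unsettled type on the same strand, and reads over both are in neither count, so its level may be incomplete. With both strand counts added in place of the joint count, the replicate block again called DBH (log2 fold change -0.21, adjusted p 0.0391), DDC (-0.29, adjusted p 0.0157), CHGA and CHGB, in edgeR's quasi-likelihood test.

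**Figure D2:**
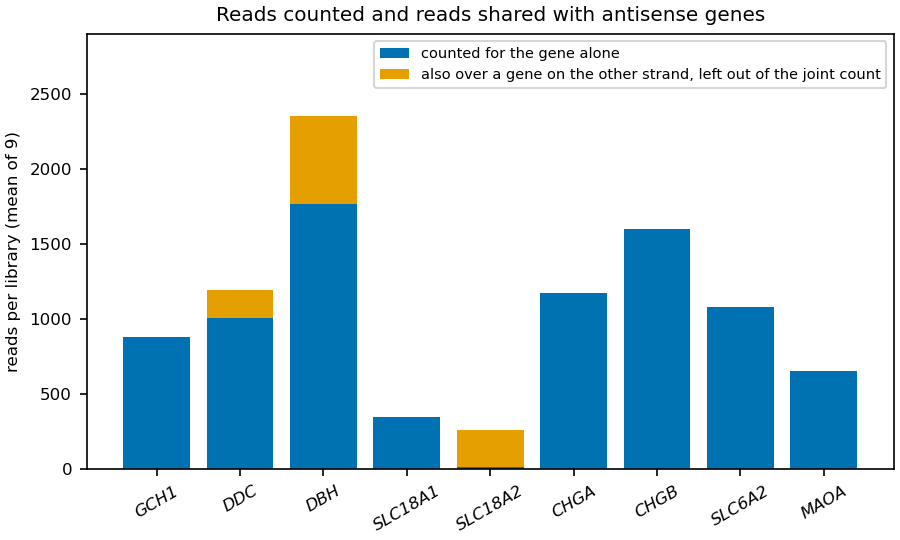
Mean reads per library over the 9 libraries (vertical axis) for each of the 9 genes, split into reads counted for the gene alone (blue) and reads that also lay over a gene on the opposite strand and were left out of the joint count (orange). SLC18A2 is almost wholly orange (94.5% to 98.9% per library), DBH and DDC are partly so, and the other genes are blue.

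The first comparison asked which of these genes differ between 20 µM citrinin and vehicle. With the replicate block 4 of the 9 genes fell and none rose, and 1.36% of the 17806 genes tested fell and 0.848% rose. The median log2 fold change of the 9 was -0.22, against 0.00 over all tested genes, and 7 of the 9 were below 0 compared with 50.6% of all genes. No member had groups that did not overlap, and 6.76% of all genes did, too small a share for 0 of 9 to set the members apart. Without the block edgeR called 0 of the 9 and 0 of all genes, with 1 member (CHGA) and 387 genes (2.17%) at an unadjusted p below 0.05, and DESeq2 and limma-voom without the block also called 0 of the 9. The median without the block was -0.21.

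**Figure D3:**
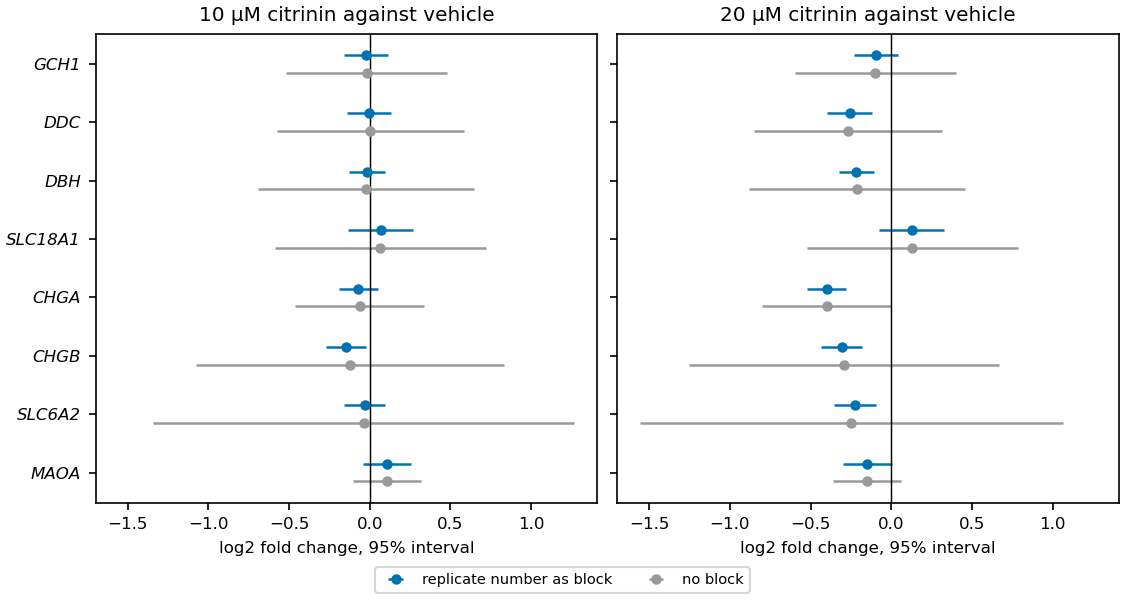
Log2 fold change (horizontal axis) with its 95% interval for the 8 genes above 1 CPM, at 10 µM against vehicle (left) and 20 µM against vehicle (right), from edgeR with the replicate number as a block (blue) and without it (grey). The blocked intervals of CHGA, CHGB, DDC, DBH and SLC6A2 lie below 0 at 20 µM, and the unblocked interval of SLC6A2 runs from -1.56 to 1.06. SLC18A2 is left out because of its low counts.

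Some markers of cell identity also moved at 20 µM with the replicate block. The marker lists were chosen with earlier results of these data known, so the counts below are a description. Without the block edgeR called 0 of the 17806 genes at 20 µM against vehicle. Of the 10 sympathetic neuroblast markers 6 fell at 20 µM with the replicate block (median log2 fold change -0.18) and none rose, where 1.36% of all genes fell. Of 15 markers of the mesenchymal cell state that is known from neuroblastoma lines, 5 rose, where 0.848% of all genes did, and none fell, with a median of 0.00 and sums of 5764 to 7756 CPM at 20 µM and 5277 to 7357 CPM in vehicle. Of 8 Schwann cell and glial markers 4 could be tested and none passed; their sums were 9.16 to 10.0 CPM at 20 µM and 6.55 to 10.0 CPM in vehicle, and CDH19 was at 0. Of 5 chromaffin markers 2 were tested: SLC18A1, itself a member, and PNMT, at 1.48 CPM or less in every library. Neither of them passed (median 0.20). None of the cholinergic (3 tested of 3), serotonin (2 of 4) or epithelial (4 of 5) markers passed. The part of these shifts in the falls of CHGA, CHGB, DBH and DDC was not tested, and in bulk RNA fewer cells of a type and less RNA per cell cannot be told apart.

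At 10 µM against vehicle none of the 9 genes passed with the replicate block, where 0.0337% of all genes (6, all higher) did. CHGB alone among the members had an unadjusted p below 0.05, as did 3.59% of all genes, with a log2 fold change of -0.15 ± 0.06 (SE), and DESeq2 and limma-voom with the block also called 0 members. The levels were 93.2 ± 37.2 CPM at 10 µM and 101 ± 32.3 CPM in vehicle for CHGB, and 71.8 ± 16.0 CPM at 10 µM and 75.0 ± 11.8 CPM in vehicle for CHGA (SD, n = 3 each; -0.07 ± 0.06). DBH, DDC, GCH1 and SLC6A2 had log2 fold changes between -0.03 and 0.00 with the block. Their 95% intervals lay within -0.16 to 0.13, so a change at 10 µM of the size seen for DBH at 20 µM was outside them. Without the block edgeR called 0 genes, with 0 members and 115 genes (0.646%) at an unadjusted p below 0.05.

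Between the doses, at 20 µM against 10 µM, CHGA fell by 0.33 ± 0.06 on the log2 scale (SE, replicate block), from edgeR with an adjusted p of 0.00487, and no other member passed. Over all genes 0.264% fell and 0.18% rose. DDC (-0.25 ± 0.07, adjusted p 0.108), DBH (-0.20 ± 0.05, 0.11), SLC6A2 (-0.19 ± 0.06, 0.25) and CHGB (-0.16 ± 0.06, 0.389) were not called by edgeR. MAOA was the one member whose groups did not overlap, at 34.2 ± 2.14 CPM at 20 µM and 40.9 ± 2.01 CPM at 10 µM (SD, n = 3 each). Groups that did not overlap and were lower at 20 µM were seen for 2.5% of all genes, and MAOA's edgeR adjusted p was 0.148 with the block (log2 fold change -0.26 ± 0.07). Without the block edgeR called 0 members, with 1 at an unadjusted p below 0.05, MAOA. CHGA was not called without 10 µM replicate 3, 20 µM replicate 2 or 20 µM replicate 3, which left 0 members called. Without 20 µM replicate 1, 5 were called (DBH, DDC, MAOA, SLC6A2 and CHGA). The 3 dose comparisons share libraries, so their values are not independent of each other.

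A trend over the 3 doses, fitted as a slope per 20 µM with the replicate block, was negative and passed for CHGA (-0.40 ± 0.06, adjusted p 0.000224), CHGB (-0.31 ± 0.06, 0.00189) and DBH (-0.21 ± 0.06, 0.0307) in edgeR's quasi-likelihood test. Negative trends passed for 1.48% of all genes. With equally spaced doses this slope rests almost wholly on the 20 µM and vehicle libraries. It nearly repeats the log2 fold changes at 20 µM against vehicle with the block (-0.40 for CHGA, -0.31 for CHGB and -0.22 for DBH). The trend is therefore not a separate result, and passing it does not show a graded fall. SLC6A2 (-0.22 ± 0.06, adjusted p 0.0533) and DDC (-0.25 ± 0.07, 0.0547) did not pass. Without the block 0 members and 4 genes (0.0225%) passed in edgeR. The trend of DBH did not pass without vehicle replicate 1, where DDC, CHGA and CHGB did. With the block, CHGA and CHGB alone passed without vehicle replicate 2, vehicle replicate 3 or 20 µM replicate 2, and CHGA alone without 20 µM replicate 3. Without 10 µM replicate 2 or 20 µM replicate 1, 5 members passed (DBH, DDC, SLC6A2, CHGA and CHGB).

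The replicate number separated most of these genes more than the dose did. In an edgeR test of the number in a model that also held the dose, 7 of the 9 genes passed, all but MAOA and SLC18A2, where 43.3% of all genes did. SLC6A2 was 2.94 times as high in replicate 2 and 2.33 times as high in replicate 3 as in replicate 1 (adjusted p 3.8e-16), and CHGB 2.17 and 1.82 times (1.6e-13). DDC stood at 1.60 and 1.12 times replicate 1, GCH1 at 1.54 and 1.30, CHGA at 1.41 and 1.12, and SLC18A1 at 1.51 and 0.896. DBH went the other way, at 0.622 times replicate 1 in replicate 2 and 0.614 times in replicate 3 (adjusted p 6.77e-12). Of all genes 8.29% both passed and differed at least 2-fold between numbers, as SLC6A2 and CHGB did. The labels do not say what the numbers mark.

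**Figure D4:**
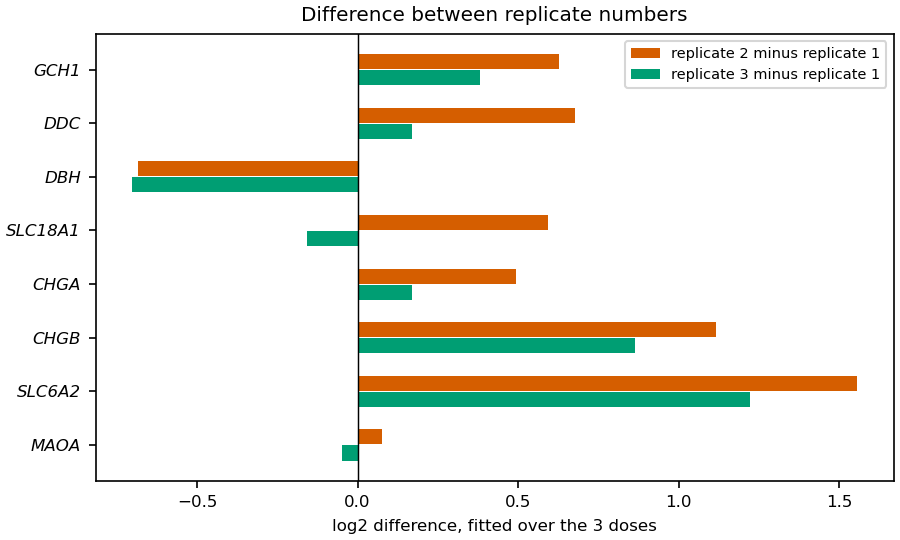
Fitted log2 difference (horizontal axis) of replicate 2 (orange) and replicate 3 (green) from replicate 1 for the 8 genes above 1 CPM, over the 3 doses. SLC6A2 and CHGB reach 1.56 and 1.12 in replicate 2, and DBH stands at -0.68 and -0.70.

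The split of the variance of log2 CPM over the 9 libraries differed between members. The replicate number held 97.5% of it for SLC6A2, 93.4% for GCH1, 91.7% for CHGB, 90.7% for SLC18A1, 90.2% for DBH and 81.3% for DDC. CHGA had 56.6% by number and 40.8% by dose, and MAOA 14.7% by number and 63.7% by dose. The medians over all tested genes were 55.1% by number and 11.4% by dose, and neither share has the noise between libraries removed. SLC18A2, at its few reads, had 94.9% in neither.

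Across the 9 libraries DBH ran against SLC6A2, CHGB and GCH1, with Pearson's r of -0.87, -0.81 and -0.78 in that order, while SLC6A2 and CHGB had r = 0.98. After the mean of each replicate number was subtracted, DBH had r = 0.95 with SLC6A2, 0.91 with CHGA, 0.81 with DDC and 0.80 with CHGB. Within numbers SLC18A1 had r between -0.32 and 0.39 with the other members, and SLC18A2, with few reads, r between -0.32 and 0.14. These values describe 9 libraries that share doses and numbers, and have no test. The ratio of DBH to DDC per length was 2.33, 1.05 and 1.31 in 20 µM replicates 1, 2 and 3, against 2.51, 0.94 and 1.26 in vehicle replicates, so it followed the number more than the dose.

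Among 11991 genes averaging at least 5 CPM, those with the log2 CPM pattern most like each member over the 9 libraries were found by Pearson's r. SLC6A2 was closest to SYT7 (r = 0.999) and TRIM67 (0.997), both above its r with CHGB. DBH was closest to MEX3B (r = 0.995) and S100PBP (0.993), GCH1 to SEZ6L2 (0.993) and MMP24 (0.990), and CHGB to MYT1 (0.993) and SYT4 (0.991). DDC was closest to CHST8 (r = 0.991) and FAM163A (0.983), CHGA to CACNA2D2 (0.981) and GNG4 (0.969), and SLC18A1 to RFLNB (0.973) and ST8SIA2 (0.958). MAOA had its highest values with ADD2 (r = 0.897) and ARRDC4 (0.891), and SLC18A2, at its few reads, with ZNF789 (0.898) and ZNF182 (0.858). With the mean of each replicate number subtracted, CHGA was closest to MACROH2A1 (r = 0.995) and to GATA2 (0.992), a transcription factor of the sympathetic marker list. CHGB was then closest to ELN (r = 0.981) and RSRC2 (0.977), DBH to CTDSP2 (0.995) and CHRM2 (0.991), and DDC to BEGAIN (0.988) and MRPL22 (0.982). GCH1 was then closest to GPR173 (r = 0.996) and RGS9 (0.987), SLC6A2 to GAREM2 (0.989) and PLPPR5 (0.989), and MAOA to ZNF184 (0.978) and ARRDC4 (0.973). SLC18A1 was then closest to SCRN2 (r = 0.979) and MTRF1L (0.960), and SLC18A2 to ZNF789 (0.964) and GALNS (0.961). These are the highest of many correlations over 9 libraries that share doses and numbers, and are descriptions.

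A list of 39 other genes of catecholamine handling and dense-core granules was set beside the 9 members, of which 30 passed the filter on low counts. At 20 µM against vehicle with the replicate block 1 of them rose, none fell and 29 did not pass. Of all tested genes 0.848% rose and 1.36% fell. The genes of the list had a median log2 fold change of -0.03, with 18 of 30 below 0. Over all tested genes the median was 0.00, with 50.6% below 0. The gene that rose was ALDH3A2, which encodes the fatty aldehyde dehydrogenase. It had 92.0, 110.3 and 113 CPM in 20 µM replicates 1, 2 and 3, against 73.9, 79.7 and 86.4 CPM in vehicle replicates. All 20 µM libraries were above all vehicle libraries, and the log2 fold change was 0.39 ± 0.05 (SE; edgeR adjusted p 5.03e-05). It also rose at 20 µM against 10 µM, by 0.25 ± 0.05 (adjusted p 0.0216), and was not called at 10 µM against vehicle. The call at 20 µM against 10 µM was lost in 5 of the 9 fits that left out 1 library (vehicle replicate 3, 10 µM replicates 1 and 3, and 20 µM replicates 2 and 3), and that against vehicle in none of them. No gene of the list passed at 10 µM, and without the block edgeR called 0 of the list in all 3 comparisons. Without the block 2 of the list had an unadjusted p below 0.05 in edgeR at 20 µM against vehicle, as did 2.17% of all genes.

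Of the genes of the list reported whatever their p, MAOB, the second monoamine oxidase, had 14.4, 40.2 and 35.2 CPM in 20 µM replicates, against 13.6, 47.4 and 34.7 CPM in vehicle replicates. Its groups overlapped, with a log2 fold change of -0.07 ± 0.08 (SE, replicate block). Like SLC6A2 it was lowest in replicate 1. PNMT had a log2 fold change of 0.27 ± 0.58 at 1.48 CPM or less in every library. Other granule genes were measured at higher levels and did not pass: secretogranin II (SCG2) averaged 354 ± 160 CPM at 20 µM and 388 ± 173 CPM in vehicle (SD, n = 3 each; -0.14 ± 0.04), and the neuropeptide precursor VGF 550 ± 212 CPM at 20 µM and 559 ± 232 CPM in vehicle. The peptide-amidating enzyme PAM had a log2 fold change of 0.13 ± 0.05 and the granule priming factor CADPS one of -0.30 ± 0.09, neither of them called. SCG2, VGF, PAM and CADPS were named after their values were seen.

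**Figure D5:**
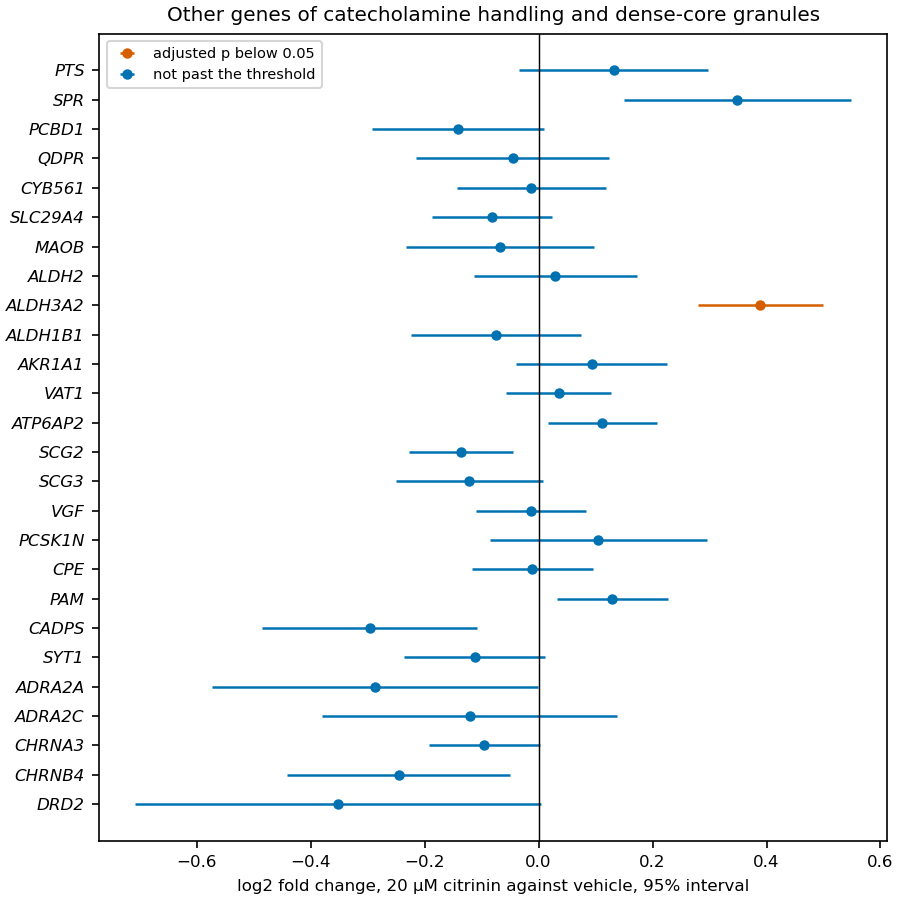
Log2 fold change at 20 µM citrinin against vehicle (horizontal axis) with its 95% interval, replicate block, for genes of the list with a standard error under 0.2. ALDH3A2 (orange) is the one gene past the threshold, and the intervals of most others include 0.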

How the data were processed

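Total RNA of SH-SY5Y cells was extracted with TRIzol, per the labels' protocols, and sequenced. The submitters' processing notes name FastQC, cutadapt, STAR, edgeR and GRCh38, without versions. The authors deposited STAR's raw counts per gene for each library, as a joint count for both strands, which was used here, and a count for each strand. A deposited table of normalized values was not used. Strand counts were about equal (ratio 0.981 to 0.993), so the kit does not mark strand. Reads not assigned to 1 gene were left out of library sizes; 76.4% to 78.0% were assigned.

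Symbols were matched for 61369 of 61487 identifiers, and coordinates and exon lengths are from GENCODE 29 on GRCh38. Genes were filtered with filterByExpr, and CPM was scaled with TMM (R 4.3.3, edgeR 4.0.16). The planned fit used edgeR's quasi-likelihood test on 9 libraries with 3 groups, Benjamini-Hochberg adjusted p below 0.05; a second planned fit added the replicate number as a block. RLE, no filter, DESeq2 1.42.0, limma-voom (limma 3.58.1), summed strand counts, 2 groups only and libraries left out were tried as alternatives. Deviations of all 9 same-numbered pairs from their group means correlated with r of 0.457 to 0.685, and those of the 18 pairs of different number and dose with r of -0.545 to 0.139, so the numbers, taken from the titles, were taken to pair the libraries. The common coefficient of variation was 0.195 without the block and 0.0552 with it (6 and 4 residual degrees of freedom). Each of the 9 pairs of libraries of the same dose differed by more than sampling noise (chi-square over its degrees of freedom, 7.99 or more).

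The members, the list of 39 genes, the markers and the motifs were chosen with earlier results of these data known. All 9 members are named whatever their p, as are TH, PNMT and MAOB, every gene of the list past the threshold, and for each member the 2 genes with the most similar log2 CPM. The rule also named 1 gene of the list that is not reported here. The scripts were tested on simulated data.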

Additional observations from a re-analysis of the deposited data

How the results depend on the processing

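With the replicate block 4 members were called at 20 µM against vehicle, 1 at 20 µM against 10 µM and 3 for the dose trend, against 0 without it. At 20 µM against vehicle the block with RLE, limma-voom or summed strand counts also called 4, with no filter or 2 groups only 5 (SLC6A2 added), and with DESeq2 2 (CHGA and CHGB). Between the doses it called 1 with RLE, DESeq2, limma-voom or summed strand counts, 2 with no filter and 0 with 2 groups only. For the trend it called 3 with RLE or DESeq2, 4 with summed strand counts, and 5 with no filter or limma-voom. For the list of 39 genes it called 1 at 20 µM against vehicle and 1 between the doses, against 0 without it. At 10 µM against vehicle no alternative called a member, and without the block no alternative called one in any dose comparison. For the replicate number 7 members were called in each alternative but the model without dose, which called 6.

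Leaving out 1 library, or all libraries of 1 number, gave 0 to 5 members called at 20 µM against vehicle, 0 to 5 between the doses and 0 to 5 for the trend, and 0 to 4 list genes at 20 µM against vehicle and 0 to 2 between the doses. Without all replicate 3 libraries no member was called in any dose comparison. Where a library is left out, the lone partners are assumed to vary like the rest.

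Log2 fold changes turned sign as follows; the cause was not tested. Summed strand counts gave SLC18A2 at 20 µM against vehicle -0.091 without and -0.088 with the block. DDC at 10 µM against vehicle, 0.00 in the planned fit, was -0.0038 with the block, -0.015 with limma-voom, -0.059 with summed strand counts, and with the block -0.0030 under RLE, -0.0025 with no filter, -0.0035 with DESeq2, -0.0029 with limma-voom, -0.064 with summed strand counts and -0.0033 with 2 groups only. With libraries left out, with or without the block, the range at 20 µM against vehicle was -0.51 to 0.062 for DBH, -0.26 to 0.036 for GCH1, -0.12 to 0.39 for SLC18A1, -0.82 to 0.75 for SLC18A2 and -0.59 to 0.11 for SLC6A2. At 10 µM against vehicle it was -0.25 to 0.068 for CHGA, -0.39 to 0.16 for CHGB, -0.26 to 0.25 for DBH, -0.28 to 0.23 for DDC, -0.19 to 0.16 for GCH1, -0.20 to 0.32 for SLC18A1, -0.43 to 0.58 for SLC18A2 and -0.38 to 0.32 for SLC6A2. At 20 µM against 10 µM it was -0.46 to 0.093 for CHGB, -0.49 to 0.052 for DBH, -0.44 to 0.0070 for DDC, -0.27 to 0.090 for GCH1, -0.19 to 0.33 for SLC18A1, -0.85 to 0.52 for SLC18A2 and -0.56 to 0.10 for SLC6A2. Depth limits SLC18A2, at 3 to 14 reads per library; the other members had at least 258.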
